A study of Mus musculus with 7 samples.

Results

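The Toll-like receptor genes Tlr1 to Tlr9 and Tlr13 were followed in RNA-seq of mouse bone marrow-derived dendritic cells (BMDCs). They were picked by gene symbol, and all 10 were found among the 28666 genes of the deposited table. Immature BMDCs gave 3 libraries and mature BMDCs gave 4, and the comparison asked how the transcripts of these receptors differed between the sorted cell states. The bone marrow came from female C57BL/6 mice aged 6 to 8 weeks, was grown with GM-CSF and IL-4 for 7 days, and was then co-cultured across a Transwell membrane with MC38 cells, a mouse colon adenocarcinoma line. Immature and mature cells alike were flow-sorted after 24 h with DON (6-diazo-5-oxo-L-norleucine), which blocks the use of glutamine. The outline of the experiment names DMSO or DON at 5 µM, and the labels give no treatment for single libraries. The surface markers that set the gates are not given in the sources used here. The labels do not say whether the libraries of a group came from separate mice or cultures, so p-values measure the spread between these libraries, which may be technical.

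Toll-like receptors are membrane proteins of the innate immune system that recognise conserved microbial molecules. Those at the cell surface bind mainly lipids and proteins of bacteria, while those in endosomes bind nucleic acids and depend on the chaperone UNC93B1 to get there. All signal through the adaptor MyD88 except TLR3, which uses TRIF, and TLR4, which uses both. In dendritic cells, ligand binding is a classical trigger of maturation, in which antigen uptake declines and costimulatory molecules and cytokines rise.

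Of the 10 receptor genes, 8 were lower in mature BMDCs and none was called higher. Expression is given as CPM, read counts relative to the library total after TMM scaling between libraries. A gene was called when edgeR's quasi-likelihood test gave an adjusted p under 0.05 and the log2 fold change was at least 1 in size, the criteria of the study. All 10 passed the filter on low counts. The 8 called genes were Tlr1, Tlr2, Tlr4 and Tlr6 among the 5 cell surface receptors and Tlr3, Tlr7, Tlr8 and Tlr13 among the 5 endosomal receptors. In the background, 9.95% of the 17461 genes tested were called lower and 13.2% were called higher. With the adjusted p alone, the same 8 receptors were lower, against 22.9% of all genes lower and 23.2% higher. Each of the 8 had every mature library below every immature library, which 26.7% of all genes tested showed. The median log2 fold change was -1.78 over the 10 receptors, -1.68 over the surface receptors and -1.88 over the endosomal receptors, beside 0.055 over all genes tested. The exceptions were Tlr5 and Tlr9. At an unadjusted p under 0.05, edgeR placed 1 receptor higher in mature BMDCs, Tlr9. DESeq2 also called none higher by these criteria, although Tlr9 passed its threshold on p (DESeq2 adjusted p = 0.0224).

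**Figure D1:**
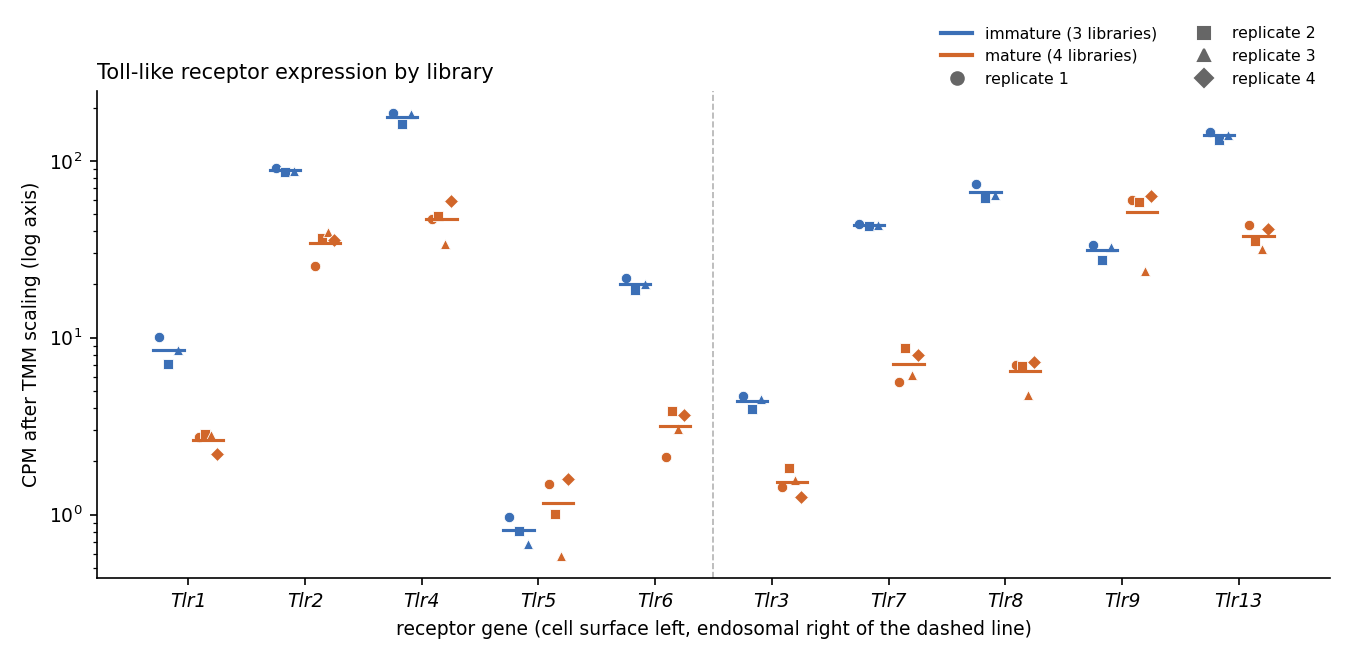
CPM of each receptor gene on a log axis, with blue points for the 3 immature libraries, orange points for the 4 mature libraries, marker shapes for replicate numbers and short lines for group means. For Tlr1, Tlr2, Tlr4, Tlr6, Tlr3, Tlr7, Tlr8 and Tlr13 the mature points all lie below the immature points, while Tlr5 and Tlr9 overlap.

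Tlr8 and Tlr9 are the endosomal receptors at the ends of this range, Tlr8 with the largest fall and Tlr9 with the largest positive log2 fold change among the 10. Tlr12, an endosomal receptor of protozoan profilin that is not one of the 10, had the only rise past the criteria among the Toll-like receptors of the table. The 250 bases before the start of each of these 3 genes are shown so that the contrasting genes can be set side by side. They are RefSeq sequences of GRCm38.p6, given 5′ to 3′ on the strand of the gene. Tlr8 lies at chrX:167264330-167264579 on the minus strand, Tlr9 at chr9:106222348-106222597 on the plus strand and Tlr12 at chr4:128618620-128618869 on the minus strand. Capitals mark matches, on either strand, to one of 5 short motifs.
Tlr8: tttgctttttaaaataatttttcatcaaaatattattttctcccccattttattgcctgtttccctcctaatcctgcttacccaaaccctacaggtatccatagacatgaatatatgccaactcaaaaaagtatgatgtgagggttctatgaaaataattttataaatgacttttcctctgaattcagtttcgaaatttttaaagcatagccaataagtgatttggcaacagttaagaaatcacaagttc
Tlr9: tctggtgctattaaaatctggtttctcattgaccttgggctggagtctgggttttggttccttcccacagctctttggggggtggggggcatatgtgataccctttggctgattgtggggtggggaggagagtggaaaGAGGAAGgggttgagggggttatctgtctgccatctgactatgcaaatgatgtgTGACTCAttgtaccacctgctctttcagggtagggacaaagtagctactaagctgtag
Tlr12: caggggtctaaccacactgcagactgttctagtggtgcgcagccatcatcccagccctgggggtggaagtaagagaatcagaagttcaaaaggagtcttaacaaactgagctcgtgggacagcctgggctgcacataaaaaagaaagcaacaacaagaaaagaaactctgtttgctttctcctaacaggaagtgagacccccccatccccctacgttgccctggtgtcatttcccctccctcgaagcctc
The motifs searched were GAGGAAG, the core bound by PU.1 and other ETS factors, TGANTCA, the AP-1 site, GGGA followed after any 4 bases by CC, a loose NF-kappa B site, GAAA followed after any 2 bases by GAAA, the core of the interferon-stimulated response element, and CACGTGA, an E-box of MiT and TFE factors. Tlr9 held GAGGAAG 112 bases and TGACTCA 58 bases before its start, and the windows of Tlr8 and Tlr12 held none of the 5. GAGGAAG also occurred 83 bases before Tlr13 and 23 bases before a RefSeq start of Tlr1, both called lower. It occurred 133 bases before Tlr11 too, which is not one of the 10 and was not called. The windows of Tlr2, Tlr3, Tlr5 and Tlr6 did not hold it. Among 32851 mouse promoter windows of the same length, GAGGAAG occurred in 10.6%, TGANTCA in 6.75%, the NF-kappa B motif in 17.6%, the interferon-stimulated element in 2.98% and CACGTGA in 3.13%. Letters in a window do not show that a factor binds there.

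Among the surface receptors, Tlr4 had the highest mean CPM in both states, although Tlr2 was above it in mature replicate 3. By FPKM, which accounts for gene length, Tlr2 was below Tlr4 in every immature library and above it in every mature one. The mature means were 10.8 FPKM for Tlr2 and 8.08 FPKM for Tlr4. Tlr4 (chromosome 4 from 66827584 to 66930284), the receptor of bacterial lipopolysaccharide, stood at 186, 162 and 183 CPM in immature replicates 1 to 3 and at 46.6, 48.8, 34.0 and 59.2 CPM in mature replicates 1 to 4. The highest mature library was far below the lowest immature one. On the log2 scale it fell by 1.91 ± 0.17 (SE; edgeR adjusted p = 2.50e-05), the means (± SD) being 177 ± 12.9 CPM over the 3 immature and 47.2 ± 10.3 CPM over the 4 mature libraries.

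Tlr2 encodes the shared partner of the receptors for bacterial lipopeptides, with TLR1 for triacylated and TLR6 for diacylated forms. Tlr2 (chromosome 3 from 83836272 to 83841767) had 90.7, 86.7 and 87.8 CPM in the immature and 25.5, 36.9, 39.5 and 35.8 CPM in the mature libraries, a drop of 2.57-fold in the means. Mature replicate 1 was lowest, and the groups did not overlap. This was the smallest of the 8 called changes, with a log2 fold change of -1.36 ± 0.14 (SE; edgeR adjusted p = 7.35e-05). Both of its partners were lower as well. Tlr6 (chromosome 5 from 64952031 to 64960048) had 21.6, 18.7 and 20.1 CPM in immature and 2.11, 3.87, 3.06 and 3.66 CPM in mature cells. Its mean was 6.34-fold lower in mature BMDCs, a log2 fold change of -2.66 ± 0.20 (SE; edgeR adjusted p = 1.21e-05). Tlr1 (chromosome 5 from 64924679 to 64933561) had 10.03, 7.12 and 8.48 CPM against 2.76, 2.86, 2.82 and 2.21 CPM, and its log2 fold change was -1.68 ± 0.18 (SE; edgeR adjusted p = 7.96e-05). For both partners all 4 mature libraries were low together, well apart from the immature ones.

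Tlr1 and Tlr6 are neighbouring paralogs, 18469 bases apart on the same strand. They share an identical stretch of 229 bases, and 139 of the 150-base words in their GENCODE transcripts, the length of 1 read, occur in both. This is 4.30% of the words of Tlr1 and 3.86% of those of Tlr6, so a small part of their reads could have been counted for either gene. No other pair of these receptors, Tlr11 and Tlr12 included, shared a word of that length. Within each library, the log2 ratio of Tlr6 to Tlr1 was 1.11, 1.39 and 1.24 in immature and -0.38, 0.43, 0.12 and 0.72 in mature BMDCs. The mean ratio thus moved by -1.02, from 1.25 ± 0.14 (SD, n = 3) to 0.22 ± 0.47 (SD, n = 4). By CPM, Tlr6 exceeded Tlr1 in every library except mature replicate 1. By FPKM, which accounts for gene length, Tlr6 was also below Tlr1 in mature replicate 3, with 0.72 against 0.74 FPKM. The ratios of the groups did not overlap, and a two-sided exact permutation test over 35 labelings gave p = 0.0571 (0.0571 after adjustment over the 2 pairs tested), the smallest p that 3 against 4 libraries allow.

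Tlr5, the flagellin receptor, was the scarcest of the 10. Tlr5 (chromosome 1 from 182954788 to 182976044) had 0.97, 0.81 and 0.68 CPM in immature and 1.49, 1.01, 0.59 and 1.58 CPM in mature libraries, from 31 to 99 reads each. Mature replicates 1, 2 and 4 lay above every immature library and mature replicate 3 below them all. The log2 fold change was 0.51 ± 0.40 (SE; edgeR adjusted p = 0.328), with a 95% interval from -0.39 to 1.41. Neither a small fall nor a rise past the criteria could thus be told from no difference. Without mature replicate 3 the log2 fold change was 0.75 ± 0.32 (SE; edgeR adjusted p = 0.0724), still not called.

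Among the endosomal receptors, the neighbouring X-linked genes Tlr8 and Tlr7, which recognise products of RNA breakdown, had the largest falls. Tlr8 (chromosome X from 167242696 to 167264329) had 73.9, 61.4 and 64.4 CPM in immature cells and 6.99, 6.94, 4.77 and 7.31 CPM in mature cells. Even the lowest immature library was several times above the highest mature one, and the log2 fold change was -3.35 ± 0.16 (SE; edgeR adjusted p = 8.80e-07). Tlr7 (chromosome X from 167304929 to 167330558) held steady at 44.1, 43.1 and 43.5 CPM in immature cells and was at 5.64, 8.80, 6.18 and 7.95 CPM in mature cells. Its log2 fold change was -2.61 ± 0.16 (SE; edgeR adjusted p = 3.10e-06), a 6.09-fold drop of the mean. The genes lie 40599 bases apart. The log2 ratio of Tlr8 to Tlr7 was 0.74, 0.51 and 0.57 in immature and 0.31, -0.34, -0.37 and -0.12 in mature libraries. By CPM, Tlr8 was thus above Tlr7 in all immature libraries and in mature replicate 1, and below it in the other mature libraries. By FPKM, which accounts for gene length, Tlr8 was also above Tlr7 in mature replicate 4, with 1.94 against 1.85 FPKM. The mean ratio moved by -0.74, from 0.61 ± 0.12 (SD, n = 3) to -0.13 ± 0.31 (SD, n = 4), without overlap of the groups (two-sided exact permutation test, p = 0.0571, adjusted p = 0.0571 over the 2 pairs, the smallest possible).

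Tlr13, a mouse receptor of bacterial ribosomal RNA with no human counterpart, was the endosomal receptor with the highest CPM in immature BMDCs. Tlr13 (chromosome X from 106143204 to 106160493) had 145, 132 and 141 CPM there and 43.2, 35.2, 31.8 and 40.9 CPM in mature cells. The libraries of each state were close together and the states far apart, with a log2 fold change of -1.88 ± 0.11 (SE; edgeR adjusted p = 3.27e-06). Tlr3, the receptor of double-stranded RNA, was much scarcer. Tlr3 (chromosome 8 from 45395665 to 45411080) had 4.68, 3.95 and 4.51 CPM against 1.42, 1.83, 1.57 and 1.26 CPM, from 79 to 291 reads per library. Its groups did not overlap either, and its log2 fold change was -1.52 ± 0.20 (SE; edgeR adjusted p = 0.000299). The GENCODE antisense gene Gm45542, which is not in the deposited table, overlaps 698 bases of Tlr3, and the strand setting of the counting is not given in the sources used here. No other receptor of the 10 overlaps an annotated gene.

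Tlr9, the receptor of unmethylated CpG DNA, went the other way in 3 of 4 mature libraries. Tlr9 (chromosome 9 from 106222598 to 106226883) had 33.3, 27.5 and 32.7 CPM in immature cells and 59.9, 58.2, 23.8 and 63.5 CPM in mature cells. Mature replicates 1, 2 and 4 were above every immature library, and mature replicate 3 was below every one of them. Over all libraries the log2 fold change was 0.72 ± 0.30 (SE), with a 95% interval from 0.036 to 1.40 and an edgeR adjusted p of 0.0805. Without mature replicate 3 it was 0.98 ± 0.082 (SE; edgeR adjusted p = 6.54e-06), which passes the threshold on p and just misses the one on fold change. With mature replicate 1 as the only mature library it was 0.97. That fit holds no spread between mature libraries, so no p-value is given for it. DESeq2 on all 7 libraries gave 0.75 ± 0.28 (SE; DESeq2 adjusted p = 0.0224), which likewise passes on p and misses the fold threshold. Over 16 alternative settings the value ran from 0.50 to 0.98 and the adjusted p from 6.54e-06 to 0.238. Among the settings with more than 1 mature library, it was below 0.05 only with DESeq2 and without mature replicate 3.

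**Figure D2:**
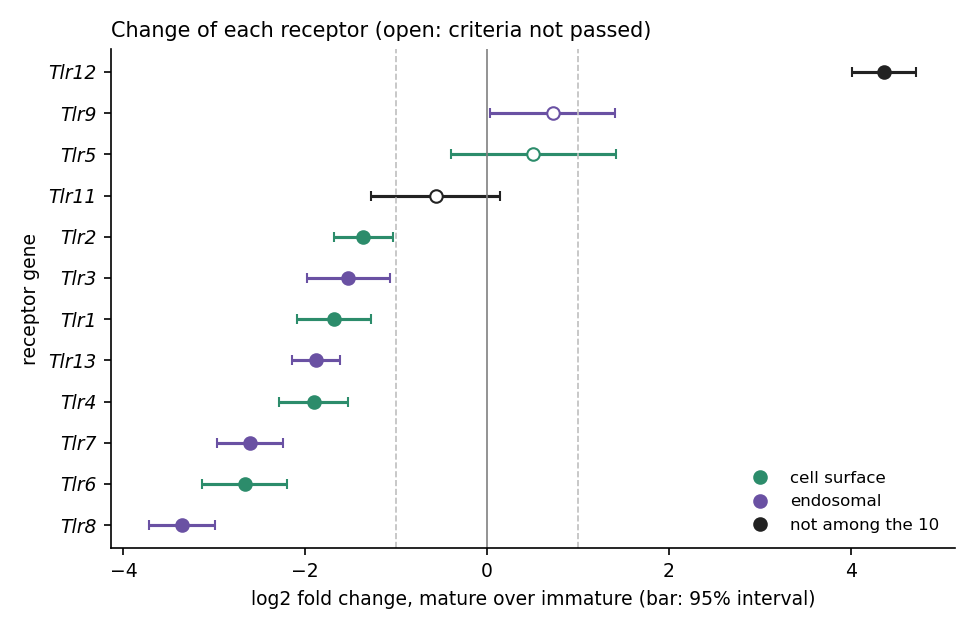
Log2 fold change of each receptor gene, mature over immature, with 95% intervals, for the 10 receptors and for Tlr11 and Tlr12, ordered by value. Filled points passed the criteria, and run from -3.35 for Tlr8 to -1.36 for Tlr2 on the left, with only Tlr12 at 4.37 on the right.

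Mature replicate 3 stood apart for several receptors, and its summed FPKM over all genes was 381707, against 327714 to 337706 in the other libraries. FPKM scales fragments by gene length and library total. The CPM of mature replicate 3 was set against the mean of mature replicates 1, 2 and 4. This ratio was 0.394 for Tlr9, 0.431 for Tlr5, 0.660 for Tlr4 and 0.673 for Tlr8. It was 0.799 for Tlr13, 0.954 for Tlr6 and between these for Tlr7, and 1.04 for Tlr3, 1.08 for Tlr1 and 1.21 for Tlr2. Mature replicate 3 was thus the lowest mature library for 5 of the 10 receptors, all but Tlr7 of the 6 with the lowest ratios. Without it, the same number of receptors, 8, passed the criteria.

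**Figure D3:**
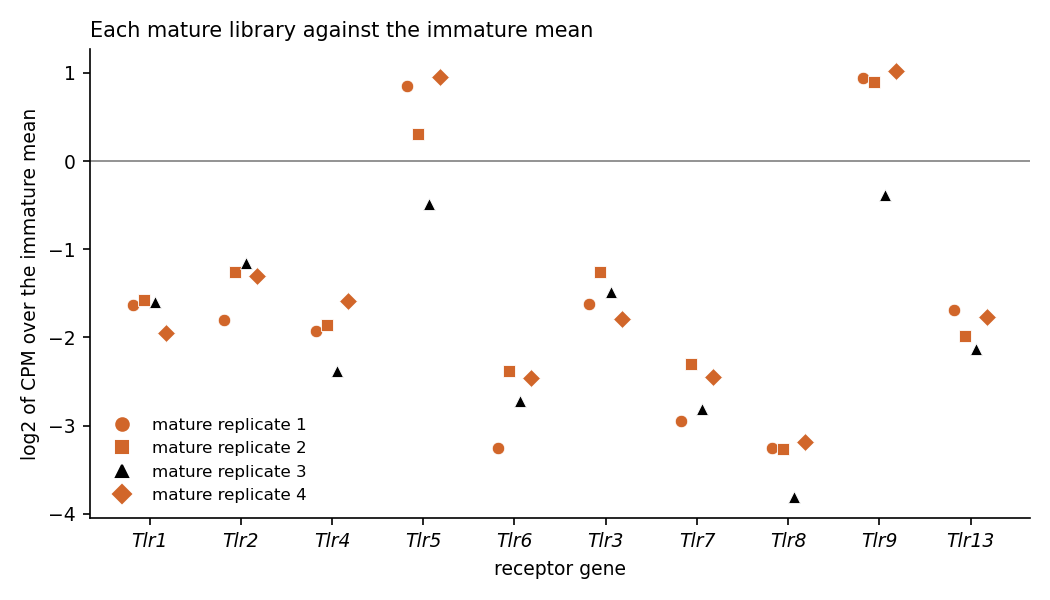
Log2 of the CPM in each mature library over the mean of the immature libraries, for each of the 10 receptor genes, with mature replicate 3 in black. The black triangles of Tlr9 and Tlr5 lie below 0 while the other mature libraries lie above it, and for the 8 called genes all 4 libraries lie below.

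Levels of different genes were compared by the deposited FPKM, which accounts for length. In immature BMDCs, Tlr13 had a mean of 28.4 ± 1.27 FPKM, Tlr4 28.0 ± 1.75 and Tlr2 25.8 ± 0.875 (SD, n = 3). The ranges of Tlr13 and Tlr4 overlapped, as did those of Tlr4 and Tlr2. Within a library, Tlr13 was above Tlr4 in 2 of 3 and Tlr4 above Tlr2 in 3 of 3. Then followed, without overlap between neighbours, Tlr8 with 16.3, Tlr7 with 9.36, Tlr9 with 7.87, Tlr6 with 4.74, Tlr1 with 2.24, Tlr3 with 0.73 and Tlr5 with 0.15 FPKM. In mature BMDCs the order was different. Tlr9 had the highest mean with 14.1 ± 5.41 FPKM, followed by Tlr2 with 10.8 ± 1.78, Tlr13 with 8.33 ± 1.38 and Tlr4 with 8.08 ± 1.98 FPKM (SD, n = 4), and neighbours among these 4 overlapped. Tlr9 led in mature replicates 1, 2 and 4, with 16.6, 16.5 and 17.4 FPKM, and Tlr2 exceeded it in mature replicate 3, with 11.6 against 6.05 FPKM. A gap separated these from Tlr8 with 1.72 and Tlr7 with 1.66 FPKM, which overlapped each other, as did Tlr6 with 0.80 and Tlr1 with 0.75 FPKM, and Tlr3 with 0.27 and Tlr5 with 0.23 FPKM.

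The summed FPKM of the 10 receptors was 118 to 131 in immature and 33.9 to 53.9 in mature libraries. Of this sum, the endosomal receptors held at least 50.5%, with a median of 50.6%, in immature libraries and a median of 56.3% in mature libraries. This share was above every immature value in mature replicates 1, 2 and 4 (62.5%, 55.9% and 56.6%) and below every one only in mature replicate 3 (45.2%). Its make-up differed by receptor. Tlr9 held 5.97% to 6.63% of the sum in immature libraries and 17.9% to 34.9% in mature ones, while Tlr8 went from 12.7% to 13.9% down to 3.45% to 3.93%. The share of Tlr2 was 20.3% to 21.8% in immature and 17.1% to 34.2% in mature libraries, the highest being mature replicate 3. In these bulk libraries, fewer cells carrying a transcript and less of it per cell cannot be told apart.

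**Figure D4:**
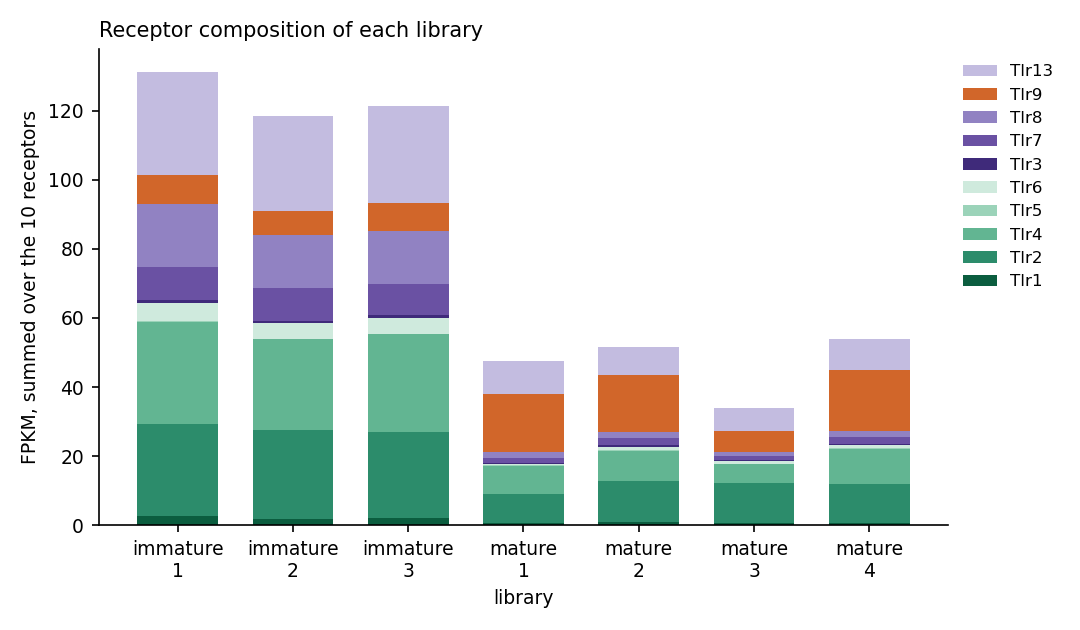
Deposited FPKM of the 10 receptor genes stacked per library, with surface receptors in green, endosomal receptors in purple and Tlr9 in orange. The stacks of the 3 immature libraries reach 118 to 131 and those of the 4 mature libraries 33.9 to 53.9, and the orange block is widest in mature replicates 1, 2 and 4.

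The remaining mouse receptors were listed with the accessory genes. Tlr11 and Tlr12 encode receptors that work together in sensing profilin. Tlr12 had 1.14, 1.38 and 1.61 CPM in immature and 30.4, 27.0, 30.4 and 26.3 CPM in mature BMDCs. All 4 mature libraries were high, replicate 3 included, and the mean rose 20.7-fold, a log2 fold change of 4.37 ± 0.16 (SE; edgeR adjusted p = 3.18e-07). Tlr11 had 3.42, 3.00 and 2.56 CPM against 2.61, 2.36, 1.04 and 2.06 CPM. Its groups overlapped, and its log2 fold change of -0.57 ± 0.31 (SE) did not pass the test (edgeR adjusted p = 0.172).

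Genes that carry receptors to their place, load ligands or process them were mostly lower or below the criteria. Of 22 accessory genes, Tlr11 and Tlr12 included, 1 was called higher (Tlr12), 7 lower and 14 neither, with a median log2 fold change of -0.65. Of all genes, 13.2% were called higher and 9.95% lower. With the adjusted p alone, 3 accessory genes were higher and 13 lower, beside 23.2% and 22.9% of all genes. Cd180, a receptor relative that modulates TLR4 signalling, had the largest fall, with means (± SD) of 66.4 ± 8.78 CPM over the 3 immature and 9.19 ± 1.12 CPM over the 4 mature libraries and a log2 fold change of -2.85 ± 0.13 (SE; edgeR adjusted p = 7.92e-07). The scavenger receptor Cd36, a co-receptor of TLR2 with TLR6, fell by 2.08 on the log2 scale, and Cd14, which passes lipopolysaccharide to TLR4, fell by 1.74 (edgeR adjusted p = 1.78e-06 and 0.000132). Cd14 had 319, 302 and 301 CPM in immature and 61.1, 82.3, 117 and 107 CPM in mature libraries, without overlap. Lbp, the lipopolysaccharide-binding protein, was called lower at no more than 3.53 CPM in any library. Ly96, which encodes MD-2, the subunit of the TLR4 complex that binds lipopolysaccharide, was not called. It had 4.33 to 4.65 CPM in immature and 5.18 to 8.89 CPM in mature libraries, all above the immature ones, with a log2 fold change of 0.68 ± 0.19 (SE; edgeR adjusted p = 0.0192).

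For the endosomal receptors, Unc93b1, their transport chaperone, had 754, 747 and 767 CPM in immature and 327, 315, 405 and 348 CPM in mature libraries. The groups were well separated, and the log2 fold change was -1.12 ± 0.098 (SE; edgeR adjusted p = 2.64e-05). Pld4, an exonuclease of endosomal nucleic acids, fell by 1.67 on the log2 scale, and Lgmn, a protease that cleaves endosomal receptors, by 1.10 (edgeR adjusted p = 8.80e-07 and 2.64e-05). The chaperone Hsp90b1, which folds most Toll-like receptors, had a log2 fold change of -0.90 and its partner Cnpy3 one of 0.09, or -0.061 with an offset for transcript length and -0.019 without mature replicate 3. Neither passed the criteria, though Hsp90b1 passed at -1.02 with that offset and had every mature library, at 414 to 435 CPM, below every immature one, at 771 to 806 CPM.

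Of the shared signalling genes, 3 passed the criteria. Of 30 listed genes 29 were tested, since Sarm1 did not pass the filter on low counts, and 2 were called higher, 1 lower and 26 neither, with a median log2 fold change of -0.13, beside 13.2% of all genes called higher and 9.95% called lower. With the adjusted p alone, 4 were higher and 12 lower, beside 23.2% and 22.9% of all genes. The gene called lower was Ticam2, which encodes the adaptor that couples TLR4 to TRIF. It had 97.2, 90.1 and 103 CPM in immature and 38.3, 36.1, 30.8 and 36.9 CPM in mature libraries, a log2 fold change of -1.44 ± 0.097 (SE; edgeR adjusted p = 5.76e-06). The genes called higher were Traf6, the ubiquitin ligase downstream of MyD88, and Sigirr, an inhibitory receptor of the same superfamily. Traf6 had 71.5, 62.5 and 69.4 CPM against 157, 159, 111 and 170 CPM, and its log2 fold change was 1.14 ± 0.15 (SE; edgeR adjusted p = 0.000267), or 0.97 and no longer called with an offset for transcript length. Sigirr had 28.2, 32.5 and 28.0 CPM against 59.6, 57.2, 86.1 and 61.7 CPM, and its log2 fold change was 1.16 ± 0.16 (SE; edgeR adjusted p = 0.000344). Both were above the immature libraries in all 4 mature libraries, with mature replicate 3 lowest for Traf6 and highest for Sigirr.

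The adaptor Myd88 itself had 86.9, 86.9 and 86.7 CPM in immature and 40.5, 43.0, 52.7 and 46.9 CPM in mature libraries. Its log2 fold change of -0.92 ± 0.10 (SE) missed the criterion on size, although the groups did not overlap, and passed it at -1.07 with an offset for transcript length. Ticam1, which encodes TRIF, the adaptor of TLR3 and TLR4, had 34.3 to 43.6 CPM in immature and 37.1 to 43.2 CPM in mature libraries, a log2 fold change of 0.03 ± 0.10 (SE; edgeR adjusted p = 0.830) whose sign changed with the setting.

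Genes commonly used as readouts of receptor stimulation were called in both directions. Of 20 listed genes 19 were tested, since Ifnb1, the gene of interferon beta, did not pass the filter, and 6 were called higher, 4 lower and 9 neither, with a median log2 fold change of 0.62, beside 13.2% of all genes called higher and 9.95% called lower. With the adjusted p alone, 8 were higher and 5 lower, beside 23.2% and 22.9% of all genes. Ccl5, a chemokine for T cells, had 73.3, 68.8 and 71.7 CPM in immature and 1219, 1154, 1815 and 1149 CPM in mature libraries. Il12b, which encodes the shared subunit of interleukins 12 and 23, had 2.85, 2.21 and 3.63 CPM against 26.6, 18.4, 19.7 and 19.9 CPM. Both were far higher in every mature library, with log2 fold changes of 4.23 ± 0.20 and 2.87 ± 0.21 (SE; edgeR adjusted p = 8.09e-07 and 1.01e-05). The other genes called higher were Il23a (log2 fold change 2.86), Il12a (2.14), Il1b (1.36) and Nfkbia (1.19), of which Il23a and Il12a stayed under 3 CPM in all libraries. Mature replicate 1 lay within the range of the immature libraries for Il12a and Il1b. The calls of Il12a and Il1b were lost without immature replicate 1 (edgeR adjusted p = 0.0827 and 0.0534) or without immature replicate 2 (0.0847 and 0.0570). That of Il23a was lost without immature replicate 1 or 3 or mature replicate 4 (edgeR adjusted p = 0.115, 0.0671 and 0.0886). The called falls were in chemokine genes for neutrophils and monocytes, Cxcl2 (-2.31), Ccl3 (-1.88) and Ccl4 (-1.09), and in Nfkbiz (-1.42), an atypical inhibitor of NF-kappa B. For Nfkbiz the groups overlapped, with 58.8, 28.2 and 15.1 CPM in immature and 8.73 to 16.4 CPM in mature libraries, and its call was lost without immature replicate 1 or mature replicate 4 (edgeR adjusted p = 0.0827 and 0.0509). The call of Ccl4 was lost without mature replicate 2, at a log2 fold change of -0.94. Ccl3 was lower in every mature library, at 25.7 to 41.0 CPM against 108 to 138 CPM. Cxcl2 was spread widely in the immature libraries, with 273, 144 and 80.4 CPM, above 20.8 to 50.4 CPM in the mature ones.

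**Figure D5:**
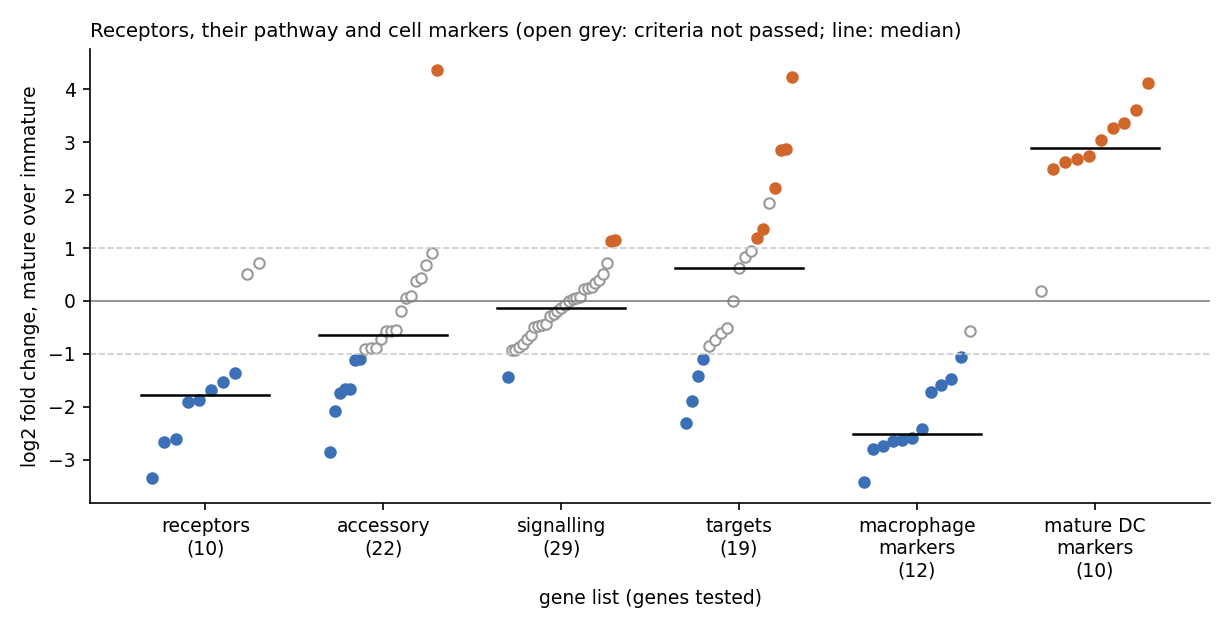
Log2 fold change, mature over immature, of each tested gene in 6 lists, with orange for genes called higher, blue for genes called lower, open grey for neither and a line at the median of each list. The receptors and macrophage markers lie mostly below -1, with medians of -1.78 and -2.51, the mature dendritic markers mostly above 1, with a median of 2.89, and the signalling genes around 0.

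Markers of other cell types were summed in the same libraries. Dendritic cell markers summed to 10252 to 10986 CPM in immature and 11415 to 16531 CPM in mature libraries, most of it from Cd74. The 8 markers differed, with 3 called higher (Flt3, Zbtb46 and Dpp4) and none lower, beside 13.2% and 9.95% of all genes. Flt3 had 0.31 to 0.65 CPM in immature and 4.83 to 7.34 CPM in mature libraries. Zbtb46 had 24.3 to 27.0 CPM and 98.0 to 109 CPM. Itgax was not called, but every mature library was below every immature one. Markers of mature dendritic cells rose from 1950 to 2195 CPM up to 13901 to 17588 CPM. Of these, 9 of 10 were called higher and Ccl17 not, beside 13.2% of all genes called higher. The list holds Cd80 and Cd86, whose proteins define mature cells in flow cytometry elsewhere in the study. If the sort used them, their rise was not independent of the gate. Macrophage markers moved with the receptors. They summed to 2500 to 2621 CPM in immature and 489 to 572 CPM in mature libraries. Of these, 11 of 12 were called lower and Cd163 not, beside 9.95% of all genes called lower. None of the 12 was at 3 counts or fewer in every library. Their part in the fall of the 8 receptors was not tested. Beside Tlr9 and Tlr12, markers of plasmacytoid dendritic cells, of which 7 of 8 are in the table, summed to 149 to 152 CPM in immature and 512 to 557 CPM in mature libraries. Irf8, which is expressed in conventional dendritic cells too, made up most of these sums. It had 106 to 111 CPM in immature and 445 to 503 CPM in mature libraries. Irf8 was the only one of the 5 tested markers called, beside 13.2% of all genes called higher. With the adjusted p alone, Irf8, Tcf4 and Spib were higher, 3 of the 5, beside 23.2% of all genes. Tcf4 had 22.4 to 24.8 CPM in immature and 27.6 to 43.6 CPM in mature libraries. Spib had 15.2 to 18.3 CPM and 23.2 to 32.9 CPM. Ccr9 and Klk1 overlapped between the groups, and the defining marker Ly6d had no read in 6 of 7 libraries. The part of plasmacytoid cells in the values of Tlr9 and Tlr12 was not tested. Neutrophil markers summed to 9.31 to 10.5 CPM in immature and 2.83 to 5.07 CPM in mature libraries. Markers of type 1 conventional dendritic cells summed to 254 to 281 against 208 to 297 CPM, with 3 of 7 called higher (Batf3, Itgae and Cd8a) and 2 lower (Clec9a and Wdfy4). Markers of B cells summed to 3.07 to 4.91 against 2.39 to 6.71 CPM. Heart muscle markers summed to at most 5.61 CPM in immature libraries, 26.7 CPM in mature replicate 1 and 684 to 805 CPM in the other mature libraries. With mature replicate 1 as the only mature library, the log2 fold changes of the 8 called receptors ran from -3.23 for Tlr6 to -1.59 for Tlr3. The part of heart muscle RNA in the receptor values was not tested.

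The genes nearest to Tlr8 across the 7 libraries, by the distance between log2 CPM values centred on each gene's mean, were Hacd4, Mrc1 and Ccr2. Hacd4 is an enzyme of very-long-chain fatty acid synthesis, Mrc1 is the macrophage mannose receptor and Ccr2 the chemokine receptor of monocytes. Their distances were 0.352, 0.369 and 0.384 on the log2 scale, each with r = 0.997 over 7 libraries, which share 1 contrast. The log2 fold changes were -3.36 for Hacd4, -3.43 for Mrc1 and -3.40 for Ccr2, close to that of Tlr8. Ccr2, for example, had 780, 679 and 749 CPM in immature and 86.8, 60.8, 52.8 and 77.8 CPM in mature libraries, the lowest again in mature replicate 3.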

How the data were processed

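RNA of sorted immature (3 libraries) and mature (4 libraries) BMDCs was sequenced as Illumina paired-end reads from a dUTP stranded kit. The authors deposited 1 table with raw counts of reads, whole numbers for each gene in each library, beside FPKM values rounded to 2 decimals. The submitters' processing notes name cutadapt 1.9, HISAT2 2.2.1, StringTie 2.1.6, DESeq2 and edgeR, and build mm9. The coordinates in the table are those of GRCm38: 28588 of 28666 genes are in GENCODE M21, 25842 with identical start and end. Groups and replicate numbers came from the labels. Total counts ran from 54846746 to 67973086 per library. Reads copied from 1 molecule are counted separately, so depth bears on counting error only.

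Counts were tested in R 4.3.3 with edgeR 4.0.16 (low-count filter, TMM, quasi-likelihood test on all 7 libraries, Benjamini-Hochberg adjustment over 17461 genes). The 2 ratios of paralogs used a prior count of 2 and exact permutation tests. All 10 receptors are named, and of each other list the called genes with the largest changes, up to 5 in each direction, plus genes that account for a small count. Unc93b1, Lgmn, Nfkbia, Tlr11, Ly96, Hsp90b1, Cnpy3, Myd88 and Ticam1 were added after their values were seen. The 3 genes nearest to the receptor with the largest fall are also named. The members and lists were chosen with earlier results of these data known. Sequences come from RefSeq (GRCm38.p6), where Tlr4 and Tlr7 had no entry, and shared words from GENCODE M21 transcripts.

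Alternatives were DESeq2 1.42.0, limma 3.58.1 on log2(FPKM + 1) and log2(FPKM + 0.1), an FPKM of at least 1 in 3 libraries, no filter, RLE factors, the adjusted p alone, a replicate block and each library left out. For the ratios they were no prior count and FPKM values. A length offset and mature replicate 1 as the only mature library were added after seeing the data. The tests were tested on simulated counts. Summaries used Python 3.11.15, scipy 1.17.1, numpy 2.4.6 and pandas 2.3.3. Figures used matplotlib 3.10.9.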

Additional observations from a re-analysis of the deposited data

Results flagged for a closer look

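Among 40 genes, the receptors and the genes named for their pathway or as nearest to Tlr8, the CPM of 7 held a mature library that stood apart from the other mature libraries. The distance of such a library from its closest neighbour, as a share of the whole range of the 4 libraries, exceeded Dixon's 95% critical value. It was 0.865 for Tlr9, with 23.8 CPM in mature replicate 3 and 58.2 CPM in the nearest library, and 0.854 for Tlr8, with 4.77 CPM in mature replicate 3 against 6.94 CPM. For Tlr1 it was 0.849, with 2.21 CPM in mature replicate 4 against 2.76 CPM. For the target gene Ccl5 it was 0.895, with 1815 CPM in mature replicate 3 against 1219 CPM, and for the inhibitory receptor Sigirr 0.843, with 86.1 CPM in mature replicate 3 against 61.7 CPM. It was 0.884 for Nfkbia, with 561 CPM in mature replicate 3 against 372 CPM, and 0.893 for the chaperone gene Cnpy3, with 159 CPM there against 118 CPM. Mature replicate 3 was the library apart in 6 of the 7 genes, low for Tlr8 and Tlr9 and high for Ccl5, Sigirr, Nfkbia and Cnpy3. At this threshold 2 of the 40 genes would be reached by chance alone. The 40 share the same 4 mature libraries and some were added after their values were seen, so 7 cannot be weighed against that number.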

How the results depend on the processing

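No log2 fold change of a receptor changed direction under the alternatives, and 153 values kept their side of the criteria. The exception was 1 value, Tlr1 with limma on log2(FPKM + 1), at -0.88. The number of receptors called stayed at 8 except for 6 with limma on log2(FPKM + 1), and 7 with limma on log2(FPKM + 0.1) and with the filter on FPKM, settings in which Tlr3 and Tlr5 were not tested. With the adjusted p alone, 16 accessory and 16 signalling genes passed. With mature replicate 1 as the only mature library, 5 signalling genes and 6 target genes passed, and that lone library is assumed to vary like the others. Leaving out 1 library at a time gave 7 to 11 target genes, 3 to 4 signalling genes and 8 to 9 accessory genes. The number of calls over all genes fell from 4037 to 1768 and 2561 with limma and to 2665 with the FPKM filter, which test 11758 genes. The length offset moved the median of all genes from 0.055 to -0.10 and the calls from 2300 higher and 1737 lower to 1999 and 2185. It called 11 accessory genes, 10 of them lower, and 4 signalling genes, 3 of them lower, without Traf6. The median was 0.18 with DESeq2 and 0.17 without a filter, which test 27808 genes.

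For 30 other named genes, 435 values kept their side, 24 no longer passed, 3 passed anew and 6 changed sign. The sign changes were in Cnpy3 (-0.061 with the length offset, -0.019 to 0.14 without 1 library) and Ticam1 (-0.091 with the length offset, -0.0078 with a replicate block, -0.048 to 0.12 without 1 library), neither of them called.

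Same-numbered libraries of the groups did not deviate together (correlations of 0.0285, -0.00114 and 0.0144), so the numbers were not taken as pairs. With a replicate block 3616 genes and 8 receptors passed, and the change in the ratio was -0.74 for Tlr8 to Tlr7 and -1.19 for Tlr6 to Tlr1, without mature replicate 4. Depth limits Tlr5 most, at 31 to 99 reads per library.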
